A study of Mus musculus with 2 samples.

Results

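The 201 mouse microRNAs (miRNAs) described here are the 5p arms of the number series miR-6896 to miR-7094, out of 1881 miRNAs on the array. They were chosen by name alone, as every miRNA of the array whose number falls in that range, with an optional letter, and whose name ends in -5p. This took in miR-7094b-2-5p, whose name also carries a copy number. The rule uses no measured value, but its number range was chosen with earlier results of these data known.

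The RNA came from exosomes, small membrane vesicles released by cells, isolated from the serum of mice that carried subcutaneous tumours. In the LLC group, mice were injected with 1000000 luciferase-expressing cells of the Lewis lung carcinoma (LLC) line, an established mouse lung cancer line. Mice of the MSC+LLC group received the same cells together with murine mesenchymal stem cells from bone marrow (BMSCs), which are stromal cells able to form several tissues. Serum was taken when the mean tumour volume reached 200 mm3, 100 ng of total RNA was labelled with Cy3, and each group was hybridised to 1 array. All mice carried LLC tumours and no tumour-free group was analysed here. The labels say serum while the study's text says plasma, and the number of mice behind each array was not given in the sources used here. With 1 array per group no test could be made, no p-value is given, and each difference given here is between 2 arrays. The errors are standard deviations (SD) over the spots of a probe, which are technical. The arrays shared a slide and a scan, so slide position and group cannot be told apart.

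Most miRNAs are cut from long transcripts by Drosha and then by Dicer. Mirtrons take another route: a short intron is spliced out, folds into a hairpin and enters the pathway at Dicer, so that the hairpin ends are set by the splice sites. An intron starts with GU and ends with AG, and some mirtrons carry an unpaired tail on 1 side that is trimmed before Dicer acts. The hairpin leaves a 5p and a 3p arm, and the arm loaded into an Argonaute protein pairs with targets mainly through its seed, bases 2 to 8.

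The label of this number series as mirtrons was set against the hairpin sequences, since the array files carry no such annotation. RefSeq sequences (assembly GRCm38.p6) were found for 180 hairpins of the series, and 167 of them (92.8%) ended in AG, against 8.61% of 825 other mouse hairpins. A GU start was found in 27 (15.0%) against 6.06%, and both ends together in 21 (11.7%) against 1.09%. Of 201 miRNA genes of the series, 199 (99.0%) lay inside the bounds of a protein-coding gene, compared with 626 of 1027 other miRNA genes (61.0%). Whether each lies in an intron was not checked. The median hairpin length was 66 bases in the series and 82 in the others. The AG end was thus common to nearly all hairpins, while the GU start was not.

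The hairpins of 3 members are printed below, 5′ to 3′, with a GU start and an AG end in capitals. The hairpins of miR-6931-5p and miR-6984-5p are shown because they have both ends and their 5p arms were seen on both arrays and that of miR-6944-5p because its 5p arm itself starts at the GU.
Mir6931: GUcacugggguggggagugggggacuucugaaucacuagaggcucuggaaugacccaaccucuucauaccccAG
Mir6984: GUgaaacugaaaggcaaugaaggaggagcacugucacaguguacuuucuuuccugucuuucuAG
Mir6944: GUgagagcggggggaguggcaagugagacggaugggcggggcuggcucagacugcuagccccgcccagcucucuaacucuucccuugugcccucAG
In GRCm38.p6 these lie at chr11:102999848-102999921 (minus strand, within Dcakd), chr19:3288920-3288983 (plus strand, within Mrpl21) and chr13:55477681-55477776 (minus strand, within Dbn1). Dbn1 encodes drebrin, an actin-binding protein, and Mrpl21 a protein of the mitochondrial ribosome.

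The mature 5p arms on which the results below turn have the following sequences, with the seed in capitals. A mature sequence was found for 177 of the 201 members.
miR-7047-5p: uGAGGGAGgagggcugggucuga
miR-6931-5p: uGGGGUGGggagugggggacu
miR-6937-5p: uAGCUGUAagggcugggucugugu
miR-6984-5p: aCUGAAAGgcaaugaaggaggagc
miR-7036a-5p: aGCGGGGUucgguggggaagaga
miR-7082-5p: uACGGGCAggaggaggggagg
miR-6944-5p: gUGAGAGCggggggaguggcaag
miR-7070-5p: gUGAGGGGagcugaggcagga
miR-6973b-5p: gUAGGUAUggggagaggacaggga
miR-6965-5p: aGAGGGAGgcuauugggcaggaga
MiR-6931-5p lies at chr11:102999896-102999916 (minus strand), miR-6944-5p at chr13:55477754-55477776 (minus strand) and miR-7070-5p at chr8:85062086-85062106 (plus strand). The gene of miR-7040-5p, the member with the highest ratio, lies at chr6:83049711-83049773. For contrast, the 3p partners of miR-7047-5p and miR-7082-5p are printed in the same way.
miR-7047-3p: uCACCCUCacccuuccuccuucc
miR-7082-3p: gCCCCCCUugcugucugucucc
The 5p arms were rich in G and in purines, and their 3p partners were rich in pyrimidines. G made up a median of 43.5% of the bases of the 177 members, of 14.3% in 175 3p arms of the same series and of 26.1% in 1256 other miRNAs. Purines made up 68.2%, 28.0% and 50% in the same order. Length did not set the members apart, with a median of 22 bases in all these sets. Among the 177 members 15 (8.47%) began with GU, as miR-6944-5p and miR-7070-5p do, against 22 of 486 other 5p arms (4.53%).

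Each array carried 56430 miRNA spots, of which 6030 belonged to 412 probes of the members. Of the member spots, outliers included, 32.7% (LLC array) and 9.67% (MSC+LLC array) were well above background, against 23.3% and 11.5% of all miRNA spots. Before scaling, the MSC+LLC array was the dimmer: the 75th percentile over probes that both arrays detected stood at 2883 (LLC) and 250.3 (MSC+LLC) intensity units, a factor of 11.5. The hybridization spike-ins, added after labelling, differed by 0.04 on the log2 scale and the labelling spike-ins by -1.32. The same 100 ng of RNA was labelled for each array, and the part of labelling in the dimmer signal was not tested. For a single miRNA, fewer vesicles that carry it and less of it per vesicle cannot be told apart. MiRNAs known from other tissues were present as well: of 13 markers of red cells, platelets and leukocytes, hepatocytes, skeletal muscle and mesenchymal stromal cells, 12 (LLC array) and 11 (MSC+LLC array) were detected. Of the 4 stromal markers, miR-199a-3p (log2 ratio 0.57 ± 0.15 after scaling) and miR-214-3p (0.82 ± 0.32) were detected on both arrays, miR-143-3p on the LLC array alone and miR-145a-5p on neither. The scaled log2 ratios of the other markers ranged from -2.33 ± 0.17 (miR-144-3p) to 1.66 ± 0.15 (miR-486a-5p), both red cell markers. This range takes in the stromal ratios. The part of all these cell types in the results below was not tested.

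A miRNA was called detected when, for at least 1 of its probes, more than 50% of the kept spots stood well above background. On the LLC array 75 of the 201 members (37.3%) were detected, against 26.7% of all 1881 miRNAs. On the MSC+LLC array 23 members (11.4%) were detected, against 13.7% of all miRNAs. The members thus stood above the share of all miRNAs on the LLC array and near it on the MSC+LLC array. All 23 members detected on the MSC+LLC array were also detected on the LLC array, so that 11.4% of the members were seen on both arrays, compared with 12.8% of all miRNAs. A further 52 members were detected on the LLC array alone, none on the MSC+LLC array alone, and 126 on neither. Among the other miRNAs, 18 were detected on the MSC+LLC array alone. Of the members detected on the LLC array, 30.7% were also detected on the MSC+LLC array, whereas 217 of 427 other miRNAs (50.8%) were.

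**Figure D1:**
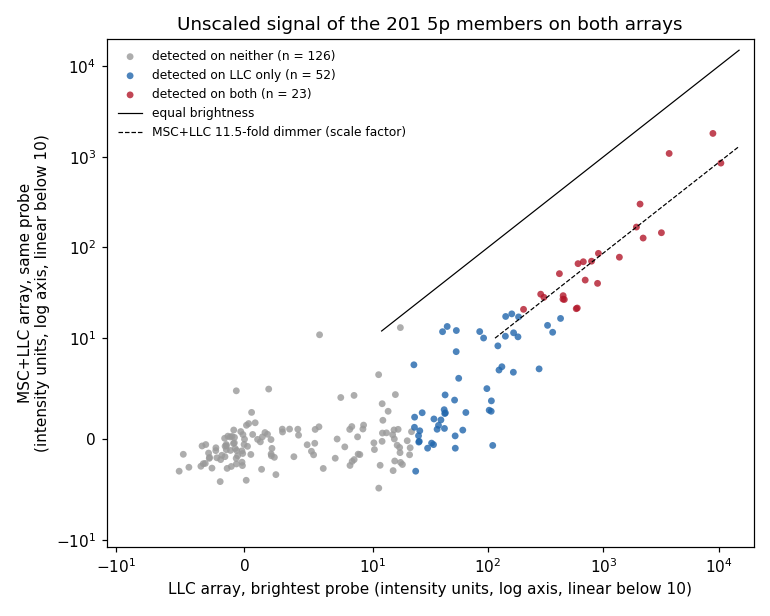
Signal of the brightest probe of each of the 201 members on the LLC array (horizontal) and of the same probe on the MSC+LLC array (vertical), in unscaled intensity units on log axes that turn linear below 10. Each point is 1 member on 1 array per group. All 23 members detected on both arrays lie below the line of equal brightness and spread around the dashed line of the 11.5-fold scale factor, and the 52 members detected on the LLC array alone lie further down to the left.

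The level on the LLC array went with what was seen on the other array. Levels here are those of a member's brightest probe, and since probes differ in how strongly they bind, they show how far a probe stood above background and not which miRNA was the more abundant. The 23 members detected on both arrays had LLC signals from 203.5 to 10434 intensity units (median 696), and the 52 detected on the LLC array alone from 22.8 to 426 (median 52.6). The 126 members detected on neither array ran from -5.08 to 21.8, where the negative control spots averaged 2.26 ± 4.21 (SD, n = 1000 spots). A member at the same relative level on both arrays had to reach 216.5 units on the LLC array to stand at the lowest signal detected on the MSC+LLC array. Above that line lay 26 of the 75 members, and 22 of these (84.6%) were detected on the MSC+LLC array, compared with 172 of 190 other miRNAs (90.5%). Below it lay 49 members, and miR-7015-5p was the only one of them detected on the MSC+LLC array, compared with 45 of 237 other miRNAs. For 48 of the 52 members seen on the LLC array alone, the dimmer array therefore gave no bound on the ratio, and their loss from the list of detected miRNAs was not a measured decrease.

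Among those 48 the brightest on the LLC array were miR-7005-5p and miR-7066-5p. MiR-7005-5p read 184 ± 27.9 units (14 spots) there and 17.2 ± 5.33 (15 spots) on the MSC+LLC array. MiR-7066-5p read 182 ± 19.2 units and 10.3 ± 2.88 (15 spots each). Further down, miR-7085-5p read 110 ± 10.1 units (15 spots) and -0.65 ± 4.59 (14 spots), which is at the level of the negative controls. All probes were detected on the LLC array for 32 of the 52 members seen there alone, and 1 probe for the other 20.

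Bounds were available for the other 4 members seen on the LLC array alone. MiR-6965-5p stood at 426 ± 40.8 units (SD, 15 spots) on the LLC array and at 16.5 ± 3.31 (14 spots) on the MSC+LLC array, where it was not well above background. After scaling it was at least 1.90-fold lower in MSC+LLC. MiR-7050-5p, with 364 ± 37.4 and 11.6 ± 2.51 units, was at least 1.66-fold lower. The bounds of miR-6970-5p (at least 1.13-fold) and miR-7048-5p (at least 1.12-fold) were close to no difference. These are averages over probes on the log2 scale, and the probes differed. The brighter probes gave -0.36 for miR-6970-5p and -0.60 for miR-7048-5p. The dimmer probes gave 0.01 and 0.28, which bounds no decrease. None of the 4 bounds reached 2-fold. The genes of these 4 lie within Ccnf, which encodes cyclin F, Fxyd5, which encodes a regulator of ion transport, Skiv2l, which encodes an RNA helicase, and Dedd2.

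Without scaling, all 23 members with a value from both arrays were dimmer in MSC+LLC, by 3.18-fold to 27.6-fold (median 11.9-fold), which is close to the factor between the arrays. After each array was divided by its 75th percentile, 12 members lay below 0 and 11 above 0 on the log2 scale of MSC+LLC over LLC. The median log2 ratio was -0.05, with quartiles of -0.58 and 0.29, against 0.15 over the 240 miRNAs measured on both arrays. At least 2-fold higher were 2 of the 23 members, miR-7040-5p and miR-6931-5p, while 27.1% of all miRNAs measured on both arrays were that much higher. At least 2-fold lower were 2 members, miR-6944-5p and miR-7070-5p, while the share over all was 11.2%. The other 19 had ratios within 2-fold by the probes detected on both arrays. With the bounds counted in, there were still 2 higher (16.0% of the 520 miRNAs that either array detected) and 2 lower (5.38%). These directions depend on the scaling. With the spike-ins in place of the 75th percentile, or with no scaling, all 23 members were lower in MSC+LLC and none was 2-fold higher. When the 75th percentile was taken over all probes 21 were lower. After normexp background correction, which added an offset of 50 units to each spot, 19 were higher.

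**Figure D2:**
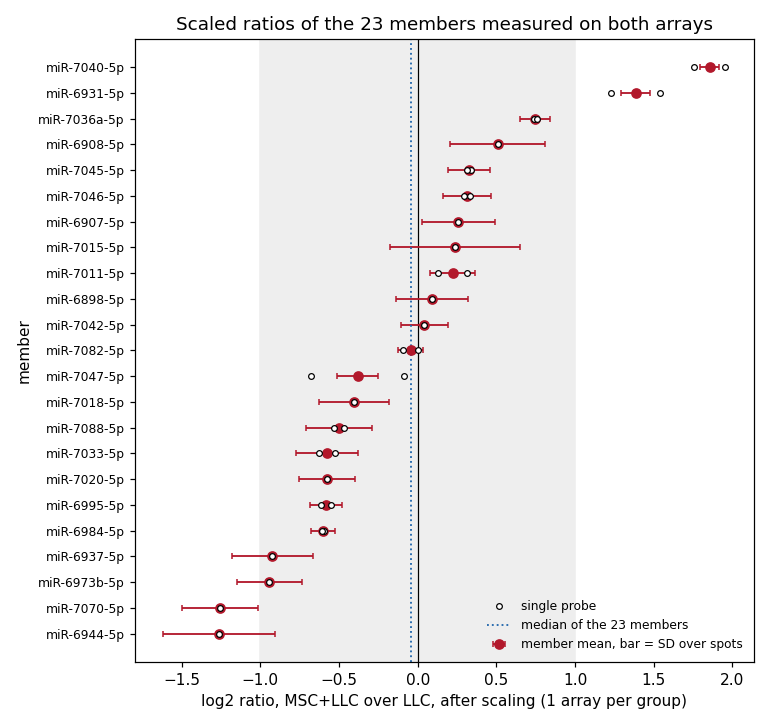
Scaled log2 ratio of MSC+LLC over LLC for the 23 members measured on both arrays, ordered by ratio. Filled points are means over a member's probes with bars for the SD over spots, open points are single probes, the grey band marks 2-fold in either direction, and the dotted line is the median of -0.05. MiR-7040-5p and miR-6931-5p lie to the right of the band, and miR-6944-5p and miR-7070-5p to the left of it with 1 probe each.

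The brightest probe of miR-7040-5p read 3717 ± 115 units (SD, 14 spots) on the LLC array and 1089 ± 42.3 (15 spots) on the MSC+LLC array. In raw brightness it was the member least dimmed by the second array, and after scaling its log2 ratio was 1.86 ± 0.06 (SD over spots), or 3.62-fold higher. Its probes gave 1.76 and 1.96. MiR-6931-5p read 8900 ± 481 units (13 spots) and 1812 ± 98.6 (14 spots), and it was the brightest member on the MSC+LLC array. Its scaled log2 ratio was 1.38 ± 0.09, or 2.61-fold higher, with 1.23 and 1.54 from its probes. For both miRNAs the ratio was many times the spread between spots, and it turned negative under each spike-in scaling (-0.35 to -1.71 for miR-7040-5p and -0.82 to -2.18 for miR-6931-5p). The gene of miR-7040-5p lies within Loxl3, which encodes a lysyl oxidase that crosslinks collagen, and that of miR-6931-5p within Dcakd.

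The lower pair were dim on the second array. MiR-6944-5p read 594 ± 85.0 units (15 spots) on the LLC array and 21.5 ± 4.28 (15 spots) on the MSC+LLC array, just above the lowest detected probe there at 18.8. Its log2 ratio was -1.26 ± 0.35, or 2.40-fold lower. MiR-7070-5p read 582 ± 27.3 (14 spots) and 21.1 ± 3.40 (15 spots), a log2 ratio of -1.26 ± 0.24 or 2.39-fold lower. Each of these ratios came from 1 probe, since the other probe was not detected on the MSC+LLC array. Both 5p arms begin with GU, the first bases of an intron. So do miR-6973b-5p and miR-7018-5p, with log2 ratios of -0.94 and -0.40. After normexp, another background correction, the lower pair turned to small positive values (0.27 for miR-6944-5p and 0.28 for miR-7070-5p). Normexp was run with an offset of 50 units added to each spot, more than either probe read on the MSC+LLC array. MiR-7070-5p comes from a gene within Fbxw9, which encodes an F-box protein.

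Among the 19 members within 2-fold was miR-7047-5p, the brightest member on the LLC array. It read 10434 ± 1136 units (15 spots) there and 853 ± 72.2 (15 spots) on the MSC+LLC array, with a log2 ratio of -0.38 ± 0.13. Its probes lay further apart than those of the other 11 members with 2 probes on both arrays, with -0.09 from the brighter and -0.68 from the dimmer. MiR-6937-5p read 3186 ± 359 and 146 ± 20.1 units (15 spots each), with a log2 ratio of -0.93 ± 0.26. It came from 1 probe. The other probe read 47.6 ± 3.70 units (14 spots) on the LLC array and was not detected on the MSC+LLC array. MiR-6984-5p, at 2213 ± 129 and 127 ± 7.22 units, gave -0.60 ± 0.08, with -0.61 and -0.60 from its probes. The gene of miR-6937-5p lies within Adi1, which encodes an enzyme of methionine salvage.

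MiR-7036a-5p, from a gene within Srrt, was the highest of the 19. The protein made from Srrt, ARS2, takes part in RNA processing by the cap-binding complex and in miRNA biogenesis. MiR-7036a-5p read 2080 ± 166 units (15 spots) on the LLC array and 301 ± 24.4 (15 spots) on the MSC+LLC array, a log2 ratio of 0.75 ± 0.10. MiR-7082-5p, within Raver1, read 1935 ± 82.9 and 168 ± 2.18 units and gave -0.05 ± 0.08, the median of the 23. MiR-6995-5p, within Sh3pxd2a, read 1377 ± 55.5 and 78.2 ± 6.35 units and gave -0.58 ± 0.10. Of these 3, the ratio of miR-7082-5p alone was smaller than its spot SD.

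MiR-6973b-5p, within the GDNF-family receptor gene Gfra4, was sensitive to how spots were kept. On the LLC array it read 891 ± 30.3 units (13 spots) and on the MSC+LLC array 40.2 ± 5.55 (14 spots), with a log2 ratio of -0.94 ± 0.21 from 1 probe. When the spots marked as outliers were kept, the same ratio became 5.69, while none of the 22 other members moved by more than its spot SD. The other probe of miR-6973b-5p read 468 ± 34.9 units (14 spots) on the LLC array and was not detected on the MSC+LLC array. Its bound of -1.11 on the log2 scale lay past 2-fold.

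The remaining members read at most 907 units on the LLC array and at most 86.2 on the MSC+LLC array. MiR-7011-5p (907 and 86.2 units), miR-7042-5p (790 and 70.6), miR-6907-5p (671 and 69.6) and miR-7045-5p (604 and 66.4) had small positive log2 ratios of 0.22 ± 0.14, 0.04 ± 0.15, 0.26 ± 0.23 and 0.33 ± 0.13. MiR-7088-5p (696 and 43.7 units), miR-7020-5p (459 and 26.7), miR-7018-5p (448 and 29.4) and miR-7033-5p (447 and 26.9) were negative, at -0.50 ± 0.21, -0.58 ± 0.18, -0.40 ± 0.22 and -0.58 ± 0.20. Their host genes include Chd4 for miR-7045-5p, the ATPase of a nucleosome remodelling complex, Hspg2 for miR-7018-5p, the basement membrane proteoglycan perlecan, and Pom121 for miR-7033-5p, a protein of the nuclear pore. The dimmest on the LLC array were miR-6908-5p (416 and 51.4 units, log2 ratio 0.51 ± 0.30), miR-6898-5p (306 and 28.2, 0.09 ± 0.23), miR-7046-5p (287 and 30.6, 0.31 ± 0.15) and miR-7015-5p (203.5 and 20.8, 0.24 ± 0.41). Of all 23 members, 4 had ratios smaller than their spot SD. The 12 members with 2 probes on both arrays had a median range of 0.08 between probes, and in 11 of them both probes lay on the same side of 0.

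The members seen on the LLC array had more G than those not seen. G made up a median of 50% of the bases of 69 members with a sequence that were detected on the LLC array, of 41.7% in 108 that were not, and of 54.2% in the 21 detected on the MSC+LLC array. Of members under 35% G, 4 of 25 (16.0%) were detected on the LLC array. The share was 18 of 65 (27.7%) from 35 to 45% G, 36 of 71 (50.7%) from 45 to 55% and 11 of 16 (68.8%) at 55% or more. Among miRNAs outside the series the shares ran in the same order, at 21.1%, 30.2%, 58.5% and 95.7%, so that in each range of G content a smaller share of members than of other miRNAs was detected on the LLC array. On the MSC+LLC array, 5 of the 71 members from 45 to 55% G (7.04%) were detected, against 28.7% of 94 others, and 9 of 16 at 55% or more (56.2%), against 52.2% of 23 others. The members' share above the array background on the LLC array was seen in a set with more G than the rest, and the part of base composition in the signal was not tested.

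**Figure D3:**
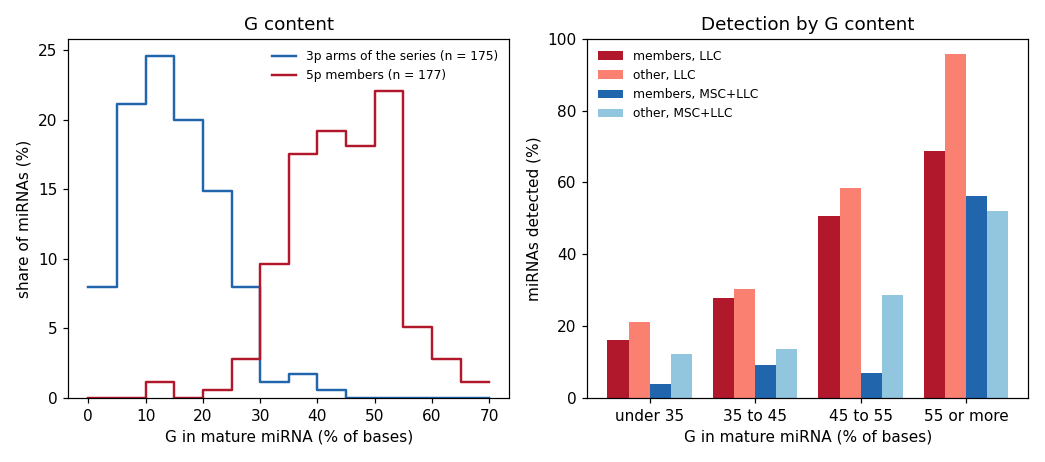
Left, share of miRNAs by G content of the mature sequence for the 177 members and 175 3p arms of the series, in steps of 5 percentage points. Right, share detected in 4 ranges of G content for members and for miRNAs outside the series on each array, where detection on the LLC array rises from 16.0% to 68.8% of members.

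Few 3p arms of the series were detected, which limits how often both arms of 1 hairpin could be seen. Whether the arms were seen together less often than their separate detection implies was not tested. For 198 hairpins both arms were on the array. On the LLC array the 5p arm alone was detected for 70 of them, the 3p arm alone for 4 and both for 4. On the MSC+LLC array the counts were 20, 2 and 3. Of all 199 3p arms of the series, 8 (4.02%) were detected in LLC and 5 (2.51%) in MSC+LLC, against 26.7% and 13.7% of all miRNAs. The 5p arm was thus the one seen in most hairpins with any signal, on both arrays.

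**Figure D4:**
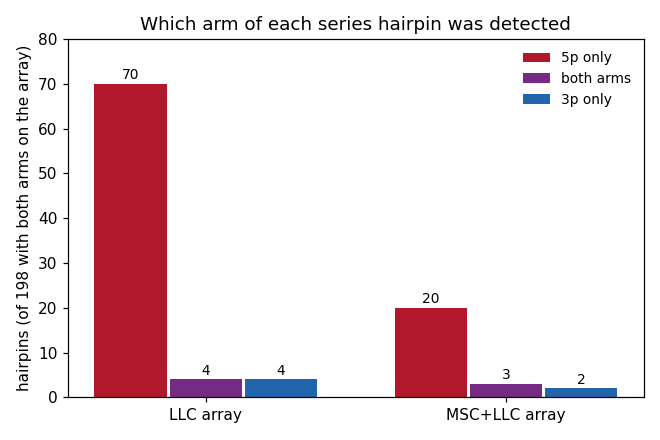
Number of hairpins, of 198 with both arms on the array, for which the 5p arm alone, both arms or the 3p arm alone were detected on each array. The 5p arm alone was detected for 70 hairpins in LLC and for 20 in MSC+LLC.

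The 5 3p arms detected on the MSC+LLC array are given beside their 5p partners as a description. A 3p arm close to the detection limit could be seen on the dimmer array only if its scaled value there was high, so no difference between the arms is read from them. MiR-7082-3p read 55.6 ± 6.29 and 21.6 ± 3.58 units (10 spots each), a scaled log2 ratio of 2.16 ± 0.29, beside -0.05 ± 0.08 for miR-7082-5p. MiR-7047-3p was not well above background on the LLC array at 20.5 ± 2.45 units (13 spots) and was detected on the MSC+LLC array at 27.1 ± 2.91 (15 spots), and after scaling it was at least 14.5-fold higher, beside -0.38 ± 0.13 on the log2 scale for miR-7047-5p. MiR-7011-3p, at 15.3 ± 3.08 and 20.7 ± 2.29 units, was at least 11.4-fold higher, beside 0.22 ± 0.14 for miR-7011-5p. MiR-7066-3p, at 20 ± 4.88 and 26.7 ± 4.59 units (15 spots each), was at least 14.7-fold higher, while miR-7066-5p was detected on the LLC array alone. MiR-6923-3p, with 21.4 ± 4.36 and 26.5 ± 4.96 units, had a scaled log2 ratio of 3.84 ± 0.40, and its 5p partner was detected on neither array. These last 4 3p arms had raw signals within a few units of each other on both arrays, close to the lowest detected probes, so their scaled differences rest on the factor of 11.5. Other 3p partners of members seen on both arrays were detected on the LLC array alone. MiR-6937-3p read 64.7 ± 6.43 and 6.70 ± 2.14 units, miR-7045-3p 51.7 ± 6.18 and 13.4 ± 2.79, and miR-7046-3p 43.2 ± 4.65 and 8.79 ± 4.24.

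Mirtrons numbered earlier, miR-877, miR-1224 and miR-702, were set beside the series. MiR-1224-5p, from a mirtron that is known in several mammals, read 22833 ± 1402 units (15 spots) on the LLC array and 2682 ± 91.3 (15 spots) on the MSC+LLC array, a log2 ratio of 0.28 ± 0.07, which is inside the range of the 23 members. MiR-877-5p was detected on the LLC array alone. Its partner miR-877-3p read 45.8 ± 6.64 and 64.2 ± 8.57 units (7 spots each), a scaled log2 ratio of 4.09 ± 0.15. Without scaling that log2 ratio was 0.57, so the scaled difference rests mostly on the factor between the arrays. MiR-1224-3p, miR-702-5p and miR-702-3p were detected on neither array.

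The seeds of the members were mostly their own. The 177 sequences held 156 distinct seeds, and 18 seeds were shared by at least 2 members, 39 members in all. In 2 of these families more than 1 member was detected on the LLC array. The seed GAGGGAG was shared by miR-7047-5p, measured on both arrays, and miR-6965-5p, which was seen on the LLC array alone with its bound of at least 1.90-fold lower. The seed GGGGAGG was shared by miR-7030-5p and miR-7075-5p, detected on the LLC array alone, and miR-7076-5p, detected on neither. Counting miRNAs outside the series, 9 of the members' seeds were shared with one that was detected. Of these, miR-6921-5p had the seed of miR-423-5p, and miR-7016-5p and miR-6967-5p that of miR-149-3p, as the following sequences show with the seed in capitals.
miR-6921-5p: uGAGGGGCaugagguaggaagc
miR-423-5p: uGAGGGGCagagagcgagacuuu
miR-7016-5p: cAGGGAGGggagcgagaguag
miR-149-3p: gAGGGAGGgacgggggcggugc
MiR-423-5p gave a log2 ratio of 0.60 ± 0.13 and miR-149-3p of -0.31 ± 0.12, while miR-6921-5p and miR-7016-5p were detected on the LLC array alone and miR-6967-5p on neither. The probe sequences were not used here, so how far a probe of 1 of these G-rich miRNAs also binds another could not be examined.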

How the data were processed

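Serum exosomal RNA of 1 LLC and 1 MSC+LLC sample was measured on Agilent mouse miRNA arrays with 1 colour, and the titles gave the groups. The authors' deposited scanner files hold spot intensity, linear, background-subtracted and not scaled between arrays. Their headers name Feature Extraction 11.5.1.1 and the submitters' processing notes 10.7. The deposited table of the series holds log2 values that the authors made in GeneSpring, and it served as an alternative.

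Control spots and outlier spots (2.59% of member spots in LLC, 2.06% in MSC+LLC) were left out, the spots of a probe were averaged, and the 75th percentile of probes detected on both arrays served as the scale of each array. Log2 ratios of MSC+LLC over LLC were averaged over the probes detected on both arrays. For a member detected on 1 array, the bound used the higher of its own signal and the lowest detected signal on the other array. It was averaged over the member's detected probes. The named members were the 10 brightest on each array, the 5 highest and lowest ratios, the largest bounds and members sharing seeds, and all 23 measured on both arrays were named. The number range that defines the members, and the lists, were chosen with earlier results of these data known. The number of arrays limits the precision. Sequences and coordinates are from RefSeq GRCm38.p6, and no coordinate of the array design (build mm9) was used. The scripts were tested on data simulated from the LLC array, with known changes given to bright miRNAs only. The shift from scaling was taken out before the error was measured, so the choice of scaling was not tested. Alternatives covered detection, scaling, averaging, normexp (limma 3.58.1, offset 50) and fold thresholds of 4 and 1.5. Python 3.11.15 with numpy 2.4.6 and pandas 2.3.3 and R 4.3.3 were used.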

Additional observations from a re-analysis of the deposited data

How the results depend on the processing

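Detection of members changed little: the counts on the LLC array, the MSC+LLC array and both stayed within 1.5 times of 75, 23 and 23 under each of the 3 other detection rules. The median log2 ratio of -0.05 became -1.26 with the 75th percentile of all probes, -0.49 with quantile normalization, -3.57 without scaling, -2.93 with all spike-ins, -3.61 with the hybridization spike-ins, -2.25 with the labelling spike-ins, 0.72 with normexp and -0.41 in the authors' deposited values. A scaling by 1 factor per array shifts all miRNAs alike. It therefore cannot change the gap between the members' median and that of all miRNAs. That gap, members minus all miRNAs with the members included, was -0.19 in the main setting. It was -0.36 with quantile normalization, -0.12 with normexp and -0.22 in the deposited values. The 2 members at least 2-fold higher, with or without bounds, became 0 with the 75th percentile of all probes, without scaling, with each spike-in scaling and at 4-fold, 4 with the scanner's detection flag and 7 with normexp. The 2 at least 2-fold lower on both arrays (with bounds, also 2) became 14 (18) with the 75th percentile of all probes, 6 (8) with quantile normalization, 23 (56) without scaling, 23 (46) with all spike-ins, 23 (57) with the hybridization spike-ins, 21 (34) with the labelling spike-ins, 1 (1) with more than 75% of spots required, 6 (6) with the detection flag, 0 (0) with normexp, 8 (70) in the deposited values, 0 (0) at 4-fold and 5 (7) at 1.5-fold, and with the summed signal per miRNA the count with bounds became 8. In the deposited values an undetected miRNA has a fixed low value, so its difference is no measured bound. MiR-7040-5p turned to -1.67 without scaling and to -1.03, -1.71 and -0.35 with all, hybridization and labelling spike-ins. MiR-6931-5p turned to -2.14, -1.50, -2.18 and -0.82 in the same order. MiR-6944-5p turned to 0.27 and miR-7070-5p to 0.28 with normexp. Normexp here added an offset of 50 units to each spot, and their probes read 21.5 and 21.1 units on the MSC+LLC array. An added constant of that size compresses unscaled ratios between dim signals. The cause of these shifts beyond the scaling and this offset was not tested. No paired analysis was possible because there is 1 array per group, and no replicate could be left out.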

Other observations

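Feature Extraction sets a detection flag of its own for each miRNA. By that flag 92 members (LLC array) and 30 members (MSC+LLC array) were detected, and 17 members carried the flag on the LLC array without more than 50% of the spots of any probe being well above background.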
